A study of Mus musculus with 12 samples.

Results

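Methionine cycle enzymes were followed in RNA of mouse muscle and in open chromatin of cultured mouse muscle cells. The group has 9 genes, taken by name with no threshold on a measured value: Mat2a, Mat2b, Ahcy, Ahcyl1, Ahcyl2, Mtr, Mtrr, Gamt and Nnmt. All 9 were found among 20194 genes of the RNA table, each with 1 row. Among 38244 peaks of the chromatin table, 20 carried the name of a member, and each member had a promoter peak.

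In cachexia, a tumour-bearing body loses muscle and fat, and the series title ties this wasting to the methionine cycle and to REDD1. PolyA RNA came from muscle of C57BL/6 mice (C57BL/6J in the treatment text) that had been injected with PBS (3 libraries) or with 500000 Lewis lung carcinoma (LLC) cells, a mouse lung tumour line, placed under the skin, and tissue was collected at day 22. The labels give neither which muscle was taken nor the age or sex of the mice. ATAC-seq, in which a transposase cuts and tags accessible DNA, was made from C2C12 cells, a mouse myoblast line of C3H origin, held in differentiation medium with 2% horse serum until they formed myotubes. Culture with 10% FBS (fetal bovine serum) is also given for both groups. Control cells (3 libraries) were set against cells given medium conditioned by Colon-26 (C26) colon carcinoma cells for 24 hours (3 libraries), so the tumour, the exposure and the material all differed between the assays. The titles call these cells myotubes and the cell type label says myoblast. Whether replicate libraries stem from different mice or different cultures is not stated, and the C2C12 cells were plated in triplicate, so p-values measure only the spread between these samples, and that spread may be technical.

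The methionine cycle turns methionine into S-adenosylmethionine (SAM), the methyl donor of most methylation reactions, and takes it back to methionine through S-adenosylhomocysteine and homocysteine. Methionine adenosyltransferase makes SAM, methyltransferases spend it, S-adenosylhomocysteine hydrolase clears the inhibitory product, and methionine synthase closes the circle with a methyl group from folate. Outside the liver the first step is run by the MAT2A catalytic subunit with its regulatory partner MAT2B, and creatine synthesis is among the large uses of SAM in the body.

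The RNA libraries held 17.0 to 20.1 M tags (M, 10 to the power of 6) and the ATAC libraries 10.1 to 18.2 M. The RNA totals were estimated from the steps of the FPKM values. All 8 skeletal muscle markers were present in each RNA library, the lowest at 34.8 FPKM, and the sum of the 8 ran from 33438 to 43812 FPKM. FPKM is the number of sequenced fragments per kilobase of transcript per M tags. Markers of other tissues varied among the muscle libraries. The sum of 7 neutrophil and marrow genes was 122 FPKM in PBS 1 and 181 in LLC 3 but 5858 to 11728 in the other 4 libraries, and the sum of 8 fat cell genes was 2371 FPKM in LLC 3 against 523 to 811 elsewhere. The sum of 6 endothelial genes was 96.3 to 115 FPKM in PBS and 189 to 230 in LLC muscle. That of 5 epidermal genes was 0.469 to 106 FPKM in PBS and 59.8 to 1290 in LLC muscle. The part of these cells in the members' values was not tested. Liver genes were near 0, with sums of 0.352 to 6.31 FPKM. Of 7 genes known as myotube markers 2, Chrna1 and Des, had a promoter peak in the chromatin table, and Myog, Myh3, Mymk, Mymx and Tnnt2 had none within 1000 bp. Control 1 stood apart among the ATAC libraries, with 27.0% of its tags in peaks against 12.0% to 17.9% in the other 5.

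In muscle RNA no methionine cycle enzyme passed the test between LLC and PBS, and Gamt and Nnmt had the lowest differences of the group. Of the 9 members, 6 lay below 0 and 3 above 0 in the log2 difference (LLC minus PBS, on log2 of FPKM plus 1), with a median of -0.03 beside 0.01 over all 12981 genes tested. None passed the limma test at an adjusted p of 0.05, a level that 0 of 12981 genes (0%) reached. At an unadjusted p under 0.05 there were 991 genes, 1 of them a member (Gamt), and the quasi-likelihood test of edgeR on recovered reads called 0 genes. Gamt was the member whose LLC libraries all lay below its PBS libraries, an order that 3.94% of all genes tested showed. In bulk tissue, fewer cells of a type and less RNA per cell cannot be told apart.

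**Figure D1:**
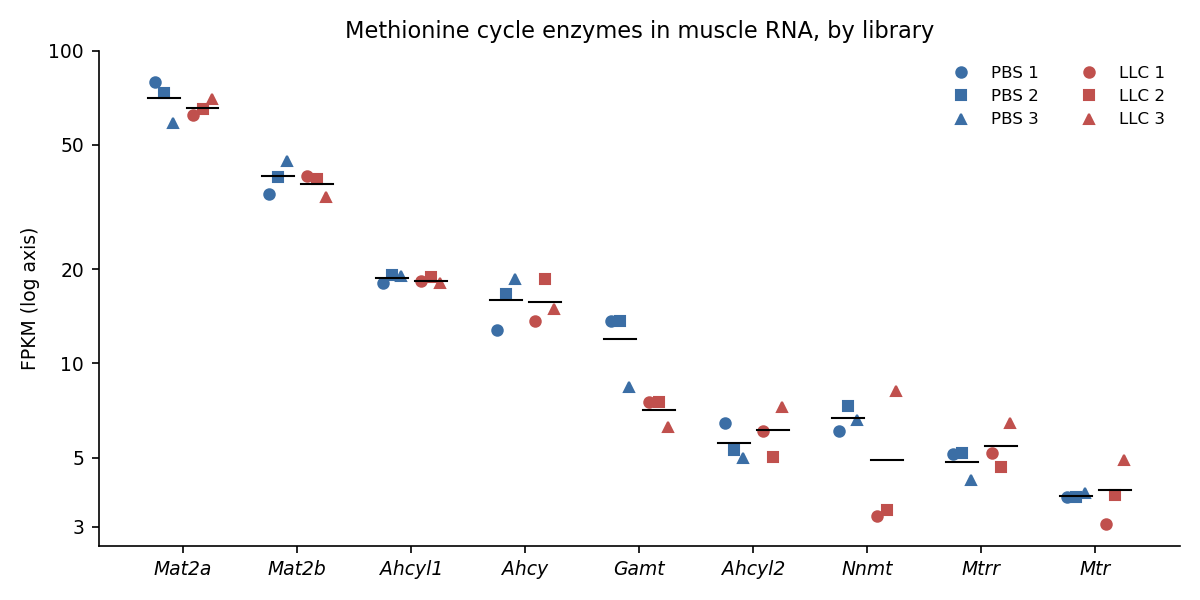
FPKM of the 9 methionine cycle enzymes (log axis) in 3 PBS libraries (blue) and 3 LLC libraries (red), with symbols for the replicate number and a line at each group mean. Gamt is the gene whose groups do not overlap, at 8.42 to 13.7 FPKM in PBS and 6.28 to 7.54 in LLC muscle, and LLC 3 lies far above LLC 1 and 2 for Nnmt.

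Mat2a and Mat2b, the subunits that make SAM, were the most abundant of the group. Mat2a (NM_145569, chromosome 6 from 72432796 to 72439556, mm10) stood at 79.7, 73.2 and 58.7 FPKM across the PBS replicates and 62.2, 65.0 and 69.9 FPKM across the LLC replicates, here and later in the order 1 to 3. The groups overlapped, since PBS 3 was the lowest library of all. The log2 difference of Mat2a was -0.09 (SE 0.15, limma adjusted p = 0.9998), with means of 70.5 ± 10.7 in PBS and 65.7 ± 3.91 FPKM in LLC muscle (SD, n = 3). Mat2b (NM_134017, chromosome 11 from 40679314 to 40692682) was at 34.9, 39.5 and 44.5 FPKM in PBS and 39.8, 38.8 and 34.1 FPKM in LLC libraries. Here PBS 3 was the highest library, and the log2 difference was -0.07 (SE 0.13). In the RefSeq gene table (GRCm38.p6) the Mat2a gene overlaps Ggcx over 564 bp at its far end and the noncoding gene Particl over 874 bp at its start. Reads of both strands were counted, so reads in these stretches cannot be assigned to either gene. Particl itself was at 5.94 to 10.5 FPKM, with overlapping groups.

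Ahcy encodes the hydrolase that splits S-adenosylhomocysteine, and Ahcyl1 and Ahcyl2 encode related proteins that lack that role, AHCYL1 being known as IRBIT, a binding partner of the IP3 receptor. Ahcy (NM_016661, chromosome 2 from 155059312 to 155074497) was at 12.8, 16.7 and 18.6 FPKM in PBS and 13.6, 18.6 and 14.96 FPKM in LLC muscle, a log2 difference of -0.02 (SE 0.18). Ahcyl1 (NM_001357112, chromosome 3 from 107663120 to 107696056) was at 18.0, 19.2 and 19.1 FPKM in PBS and 18.3, 18.8 and 18.0 FPKM in LLC muscle. Ahcyl1 was the steadiest member across the 6 libraries, with a span of 0.08 on the log2 scale and a log2 difference of -0.03 (SE 0.09). Ahcyl2 (NM_001171001, chromosome 6 from 29859596 to 29912310) was lower, at 6.45, 5.30 and 4.99 FPKM in PBS and 6.09, 5.03 and 7.27 FPKM in LLC muscle. Its groups overlapped and its log2 difference was 0.11 (SE 0.16). Noncoding genes lie within or across Ahcy and Ahcyl1 in the RefSeq table, and counting on both strands does not separate them.

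Mtr encodes methionine synthase, which needs cobalamin, and Mtrr the reductase that restores its cobalamin after oxidation. Mtr (NM_001081128, chromosome 13 from 12186540 to 12258113) was the lowest member, at 3.74, 3.74 and 3.85 FPKM in PBS and 3.08, 3.79 and 4.92 FPKM in LLC muscle. The PBS libraries were nearly equal, and the LLC libraries lay on both sides of them (log2 difference 0.03, SE 0.16). Mtrr (NM_172480, chromosome 13 from 68560780 to 68582169) was at 5.14, 5.17 and 4.23 FPKM in PBS and 5.19, 4.65 and 6.44 FPKM in LLC muscle. Its log2 difference of 0.13 (SE 0.15) was the highest of the 9, with overlapping groups. Mtrr shares its first 3 bp with Fastkd3, which is read the other way.

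Gamt and Nnmt spend SAM on small molecules: Gamt encodes the methyltransferase of the last step of creatine synthesis, and Nnmt the enzyme that methylates nicotinamide. Gamt (NM_010255, chromosome 10 from 80258151 to 80261012) was at 13.7, 13.7 and 8.42 FPKM in PBS and 7.52, 7.54 and 6.28 FPKM in LLC muscle. PBS 3 lay closer to the LLC libraries than to the other PBS libraries, yet the groups did not overlap. The LLC mean was 59.6% of the PBS mean (7.11 ± 0.721 against 11.9 ± 3.04 FPKM, SD, n = 3). The log2 difference was -0.65 (SE 0.21, limma adjusted p = 0.524). When each library was left out in turn the difference stayed between -0.86 and -0.54, with adjusted p from 0.252 to 1. The summed level of 7 fibroblast markers was 1300, 1245 and 764 FPKM in PBS and 835, 603 and 632 FPKM in LLC muscle, with 6 of 7 below 0 in the log2 difference and none at 0. The exception was Pdgfra, at 9.927, 9.35 and 5.95 FPKM in PBS and 9.555, 8.481 and 9.408 FPKM in LLC muscle. The summed level of 7 tendon markers was 428, 389 and 291 against 256, 91.2 and 39.2 FPKM. The part of either cell type in the Gamt difference was not tested.

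Nnmt (NM_010924, chromosome 9 from 48591877 to 48605123) was at 6.10, 7.31 and 6.61 FPKM in PBS and 3.24, 3.41 and 8.14 FPKM in LLC muscle. LLC 1 and 2 were below every PBS library and LLC 3 was above them all. The log2 difference was -0.46 (SE 0.32, limma adjusted p = 0.954), and without LLC 3 it was -0.82 (adjusted p = 0.652). The fat cell sum was highest in LLC 3 as well: the 8 markers summed to 523, 811 and 533 FPKM in PBS and 635, 803 and 2371 FPKM in LLC muscle, with 5 of 8 above 0 in the log2 difference and none at 0. In LLC 1 and 2 Adipoq, Plin1, Lep and Retn were below every PBS library, as Nnmt was. Fabp4 was above every PBS library there, and Cidec, Cfd and Pck1 were neither in both. Retn was at 16.5, 23.6 and 17.3 FPKM in PBS and 6.12, 5.62 and 53.3 FPKM in LLC muscle. The part of fat cells in the Nnmt level was not tested.

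**Figure D2:**
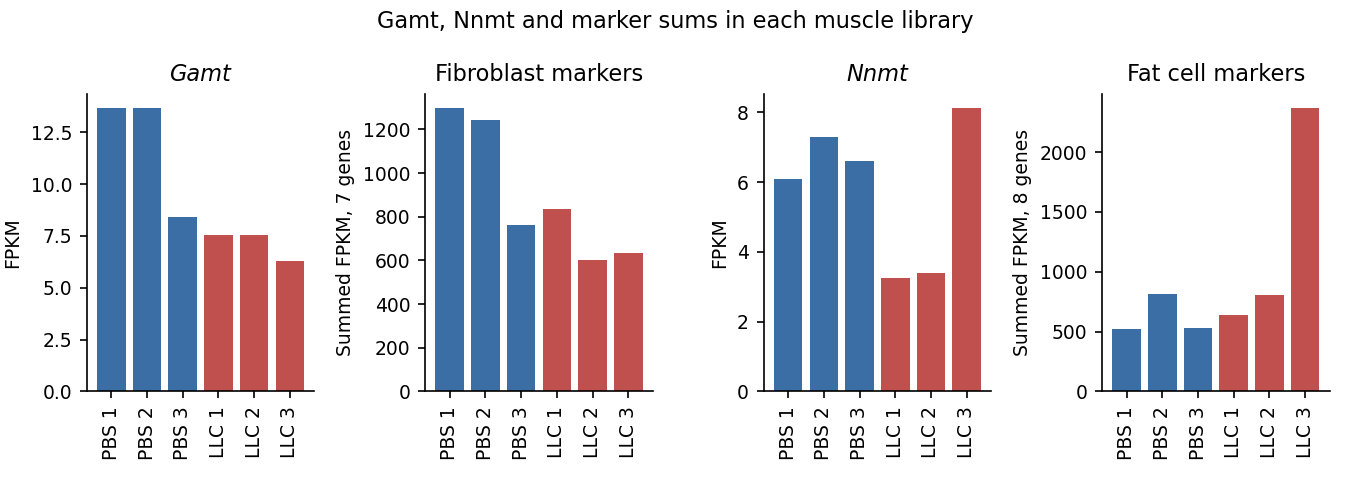
Bars give FPKM of Gamt and Nnmt and the summed FPKM of 7 fibroblast and 8 fat cell markers in each muscle library (blue PBS, red LLC; every axis starts at 0). PBS 1 and 2 are the highest libraries for Gamt and for the fibroblast sum, and LLC 3 is the highest for Nnmt and for the fat cell sum.

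Because FPKM is per length, levels of the 9 genes can be set side by side. Over the 6 libraries the means ran from Mat2a (68.1 FPKM) through Mat2b (38.6), Ahcyl1 (18.6), Ahcy (15.9), Gamt (9.52), Ahcyl2 (5.85), Nnmt (5.80) and Mtrr (5.14) to Mtr (3.85). The steps from Mat2a to Mat2b and from Mat2b to Ahcyl1 exceeded the spread, in that the ranges did not meet. All later neighbours overlapped, although Ahcyl1 was above Ahcy and Mtrr above Mtr in 6 of 6 libraries. The ratio of Mat2a to Mat2b was 2.28, 1.86 and 1.32 in PBS and 1.56, 1.67 and 2.05 in LLC muscle. The ratio of Mtr to its reductase Mtrr was 0.729, 0.723 and 0.910 in PBS and 0.593, 0.816 and 0.764 in LLC muscle. Neither ratio separated the groups, and the same held for Mat2a over Ahcy, the sum of Ahcyl1 and Ahcyl2 over Ahcy, Gamt over Gatm and Nnmt over Nampt. The exact permutation p of the 6 ratios (two-sided) was 0.2 for Nnmt over Nampt and 0.6 to 1 for the others, 1 after Benjamini-Hochberg adjustment over the 6, where 0.1 is the smallest p that 3 against 3 libraries allow. Nnmt over Nampt was 0.164, 0.257 and 0.234 in PBS and 0.0892, 0.0916 and 0.197 in LLC muscle.

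Gamt and Nnmt were the members that spanned at least 1 on the log2 scale, and the genes nearest to each in pattern were sought among all genes tested by the root mean square difference of centred log2 values over 6 libraries. Lrrc17 (0.0774) and C1qtnf2 (0.0864) were nearest to Gamt. Lrrc17 was at 3.90, 4.43 and 2.23 FPKM in PBS and 1.64, 1.85 and 1.54 FPKM in LLC muscle, with the same high pair of PBS libraries. The search picks genes by likeness over these same libraries, so a shared pattern is no separate result. Ifi203 (0.122) and Chrdl1 (0.129) were nearest to Nnmt, and Chrdl1 was at 4.69, 5.29 and 4.05 FPKM in PBS and 2.17, 2.29 and 4.62 FPKM in LLC muscle.

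Genes that feed, use or drain the cycle were taken as 11 lists with 100 genes, of which 98 were in the RNA table and 87 were tested. None passed the limma test in either direction, and 48 were above 0 and 39 below 0. Of these 87, 6 had an unadjusted p under 0.05, beside 991 of all 12981 genes tested. The liver-type SAM synthetase Mat1a (0 to 0.030 FPKM) and the betaine pathway enzyme Bhmt (0 to 0.269 FPKM) were close to 0 in all 6 libraries. Mettl16, a methyltransferase known to act on Mat2a RNA, was at 4.78 to 6.44 FPKM in PBS and 5.35 to 5.96 in LLC muscle. Its groups overlapped, as did those of Shmt1 (log2 difference 0.26, adjusted p = 0.828), a serine hydroxymethyltransferase of the same list.

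Among other users of SAM, Inmt, which methylates indoleamines, had the smallest p of the lists. It was at 16.6, 22.98 and 17.6 FPKM in PBS and 37.6, 48.3 and 44.8 FPKM in LLC muscle. The groups lay far apart, the log2 difference was 1.16 (SE 0.17), and the limma adjusted p was 0.157. Coq3, a methyltransferase of coenzyme Q synthesis, was at 6.64 to 7.45 and 8.89 to 9.002 FPKM (adjusted p = 0.506). The arginine methyltransferases Prmt2 (log2 difference 0.17) and Carm1 (-0.18) had overlapping groups. In the m6A list Mettl14 (0.12), a subunit of the writer complex, and Zc3h13 (0.11) had the smallest p, with adjusted p of 0.9998 each.

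On the transsulfuration side 8 of 9 genes tested were below 0, with a median of -0.36 beside 0.01 for all genes. Markers of some other tissues were below 0 too, among them all 6 erythroid genes (sums of 16.6, 472 and 808 FPKM in PBS and 62.0, 251 and 34.3 in LLC muscle), all 5 bone genes (0.633, 134 and 98.6 against 33.8, 19.5 and 0.542 FPKM) and all 5 macrophage genes (71.7, 125 and 133 against 85.4, 105 and 85.4 FPKM). Other marker lists were not: 5 of 6 endothelial and 5 of 5 epidermal genes were above 0. Of the neutrophil and marrow genes 4 were above 0 and 3 below. Gclm, a subunit of the first enzyme of glutathione synthesis, was taken up after its values were seen, at 9.14, 28.6 and 40.2 FPKM in PBS and 13.6, 24.8 and 12.0 in LLC muscle, and like the erythroid sum it was lowest in PBS 1 and next lowest in LLC 3. Most other tested genes of the transsulfuration list did not have that order. The part of these cells in the list's values was not tested. Mpst, a mitochondrial and cytosolic sulfurtransferase, was at 42.9, 43.8 and 50.3 FPKM in PBS and 34.0, 35.6 and 33.2 FPKM in LLC muscle (log2 difference -0.40, adjusted p = 0.418). Suox, sulfite oxidase, was at 19.1, 16.2 and 16.8 FPKM in PBS and 13.2, 11.8 and 14.9 FPKM in LLC muscle (-0.36, adjusted p = 0.584). Unlike Gclm, Suox was highest in PBS 1. Neither gene's groups overlapped, and neither passed the test. In the cobalamin list 4 genes were above 0 and 4 below 0, with Mmaa at 0.25 and Lmbrd1 at 0.18. In the methionine salvage list 4 were above and 5 below 0. Apip was at -0.17, and Amd1, which decarboxylates SAM for polyamine synthesis and whose reads may be shared with near-identical copies, was at 160 to 511 FPKM in PBS and 125 to 217 in LLC muscle (-0.78, adjusted p = 0.901).

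Beside Gamt, the creatine genes showed no shared direction, with 4 above 0 and 2 below 0. Gatm, which makes the guanidinoacetate that Gamt methylates, was at 5.57, 11.2 and 13.3 FPKM in PBS and 8.68, 11.3 and 4.10 FPKM in LLC muscle. Gatm was low in PBS 1 and LLC 3, the libraries poor in marrow genes, and the link was not tested. Muscle creatine kinase, Ckm, was at 8469 to 10195 and 10623 to 12763 FPKM, with groups apart and an adjusted p of 0.776, while Ckmt1 had overlapping groups, at 0.039, 0 and 0.364 FPKM in PBS and 5.99, 0.192 and 2.15 FPKM in LLC muscle. The sum of 5 epidermal genes, at 0.469, 6.29 and 106 FPKM in PBS and 1290, 59.8 and 524 FPKM in LLC muscle, was likewise highest in LLC 1, then in LLC 3, and its part was not tested. Beside Nnmt, 6 NAD genes were above 0 and 4 below 0. Nampt, which recycles nicotinamide, was at 37.1, 28.4 and 28.2 FPKM in PBS and 36.3, 37.2 and 41.3 FPKM in LLC muscle (0.29, adjusted p = 0.776). Nmrk2, a muscle nicotinamide riboside kinase, was at 37.5, 20.6 and 19.99 against 19.7, 8.73 and 8.60 FPKM (-1.06, adjusted p = 0.608), and Nmnat1 had a log2 difference of 0.57. Among methionine transporters Slc7a8 was at 5.10 to 5.83 and 3.52 to 4.18 FPKM (-0.42, adjusted p = 0.420) and Slc38a2 was at 0.35. Of the IP3 receptor and AHCYL1 partner genes, Itpr3 was at 0.43 and Slc26a6 at -0.26.

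**Figure D3:**
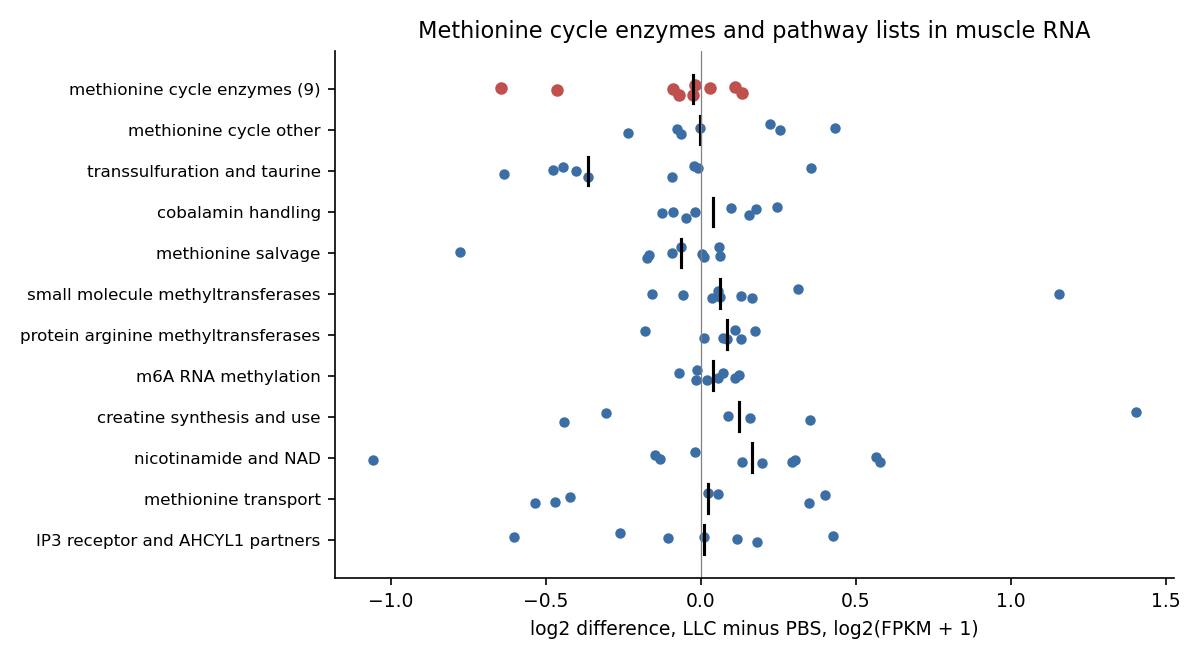
Each point is the log2 difference (LLC minus PBS, log2 of FPKM plus 1) of 1 tested gene, in red for the 9 methionine cycle enzymes and in blue for the 11 pathway lists, and black lines mark medians. The medians lie near 0 apart from transsulfuration at -0.36, Inmt stands at 1.16, and no point passed the test at an adjusted p of 0.05.

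In myotube chromatin no member peak passed the test on the deposited scale. Once the libraries were brought to a common scale, 3 of 9 member promoters passed as lower after C26 medium, where 21.2% of all promoter peaks did and the median of the members (-0.17) was close to that of all promoters (-0.16). They were Mat2a and Ahcyl1, each called in 5 of 6 fits that left out a library, and Ahcyl2, called in 2 of 6 and not with quantile normalization. The bases upstream of the annotated start are printed for these 3 and for Gamt, whose promoter peak was the highest of the group per length and whose RNA stood apart in muscle. They are RefSeq sequences of build GRCm38.p6, the 250 bases before the start (the most upstream annotated start within the peak where there are several), 5′ to 3′: Mat2a at chr6:72439557-72439806 on the minus strand, Ahcyl1 at chr3:107696561-107696810 on the minus strand, Ahcyl2 at chr6:29768193-29768442 on the plus strand and Gamt at chr10:80261013-80261262 on the minus strand. Each lies wholly inside the promoter peak of its gene. Capitals mark matches, on either strand, to the motifs given after the sequences.
Mat2a: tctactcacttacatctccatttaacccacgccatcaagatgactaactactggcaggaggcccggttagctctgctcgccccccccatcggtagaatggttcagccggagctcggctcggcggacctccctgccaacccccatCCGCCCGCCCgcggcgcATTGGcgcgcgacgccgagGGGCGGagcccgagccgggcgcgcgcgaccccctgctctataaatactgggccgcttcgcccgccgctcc
Ahcyl1: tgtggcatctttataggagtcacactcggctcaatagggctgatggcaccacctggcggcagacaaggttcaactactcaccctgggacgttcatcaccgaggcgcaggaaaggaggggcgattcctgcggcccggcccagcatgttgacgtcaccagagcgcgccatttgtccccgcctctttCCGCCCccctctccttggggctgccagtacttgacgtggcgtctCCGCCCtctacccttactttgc
Ahcyl2: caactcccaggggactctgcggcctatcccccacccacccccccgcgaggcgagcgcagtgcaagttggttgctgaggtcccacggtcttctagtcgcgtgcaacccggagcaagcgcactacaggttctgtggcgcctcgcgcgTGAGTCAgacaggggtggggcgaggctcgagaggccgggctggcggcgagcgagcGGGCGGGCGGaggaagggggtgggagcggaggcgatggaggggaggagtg
Gamt: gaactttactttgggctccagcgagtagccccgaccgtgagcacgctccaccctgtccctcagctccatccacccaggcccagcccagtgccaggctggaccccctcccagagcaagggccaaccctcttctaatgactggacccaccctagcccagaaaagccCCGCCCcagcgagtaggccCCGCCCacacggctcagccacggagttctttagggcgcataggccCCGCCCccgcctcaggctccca

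Motifs were searched on both strands in the 250 bases upstream of the start: the E-box CACGTG, the AP-1 site TGANTCA, the amino acid response element TGATGNAA, the CCAAT box CCAAT, the GC box GGGCGG and the STAT site TTCNNNGAA. Windows were found for 8 of 9 members, Nnmt being without one. The GC box was in 8 of 8 member windows and in 32.7% of 32851 RefSeq windows of the same length. The member windows lie at promoter peaks, whereas the RefSeq windows were not limited to open promoters, so the 2 sets are unlike. Mat2a has 3 GC boxes, 2 of them overlapping, and 1 CCAAT box, and Gamt has 3 GC boxes and no CCAAT box. The CCAAT box was in 5 of 8 (33.9% of all windows) and the AP-1 site in 2, Ahcy and Ahcyl2 (6.75%). No member window held the E-box (6.02%), the amino acid response element (3.45%) or the STAT site (7.02%), which says only that these letters are not in these windows. The windows held 9 to 29 CpG, with a median of 18 beside 6 for all windows, and 50.4% to 70.8% GC. A match is a description of letters, not of a bound site.

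Peak values were deposited as tags per peak after scaling each library to 10 M tags. On that scale all 19 tested member peaks were below 0 in the log2 difference (C26 medium minus control, on log2 of tags plus 1), from -0.92 to -0.04, with a median of -0.62. The median of all 37358 peaks tested was itself -0.54, so the members' values are read against it. No member peak passed the limma test (lowest adjusted p = 0.0944), where 704 peaks (1.88%) passed as lower and 428 (1.15%) as higher. In 8 of the 19 every C26 library lay below every control, an order that 34.0% of all peaks showed. The count that passed rested on single libraries, for the members and for all peaks. Without control 2, 14 member peaks passed, where 20602 of all 37358 peaks did. Without control 1, 1 member peak passed, where 4571 of all peaks did. Control 1, with its larger share of tags in peaks, had the highest value at all 19.

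Median-of-ratios scaling divides each library by its median ratio to the mean profile, with factors of 1.81, 0.852 and 1.16 in controls 1 to 3 and 0.841, 0.785 and 0.891 in C26 libraries 1 to 3. It moved the median of all peaks to -0.02. With it 13 of 19 member peaks were below 0 and 6 above, with a median of -0.10, and 3 passed the limma test, all lower and all promoters. That count was 3 without control 1, with the Gamt promoter in the place of Ahcyl2. It ran from 1 (without C26 library 3) to 4 (without control 2, with a distal Ahcy peak added) when each library was left out. Over all peaks 4753 (12.7%) then passed as lower and 6368 (17.0%) as higher. Of the 10777 promoter peaks tested 21.2% passed as lower, and the 9 member promoters had a median of -0.17 where all promoter peaks had -0.16. Groups were apart and lower in C26 medium for 5 of 19 member peaks, against 19.4% of all peaks. The scaling assumes that most peaks do not change, and a general loss of accessibility and a difference in library quality cannot be told apart here.

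**Figure D4:**
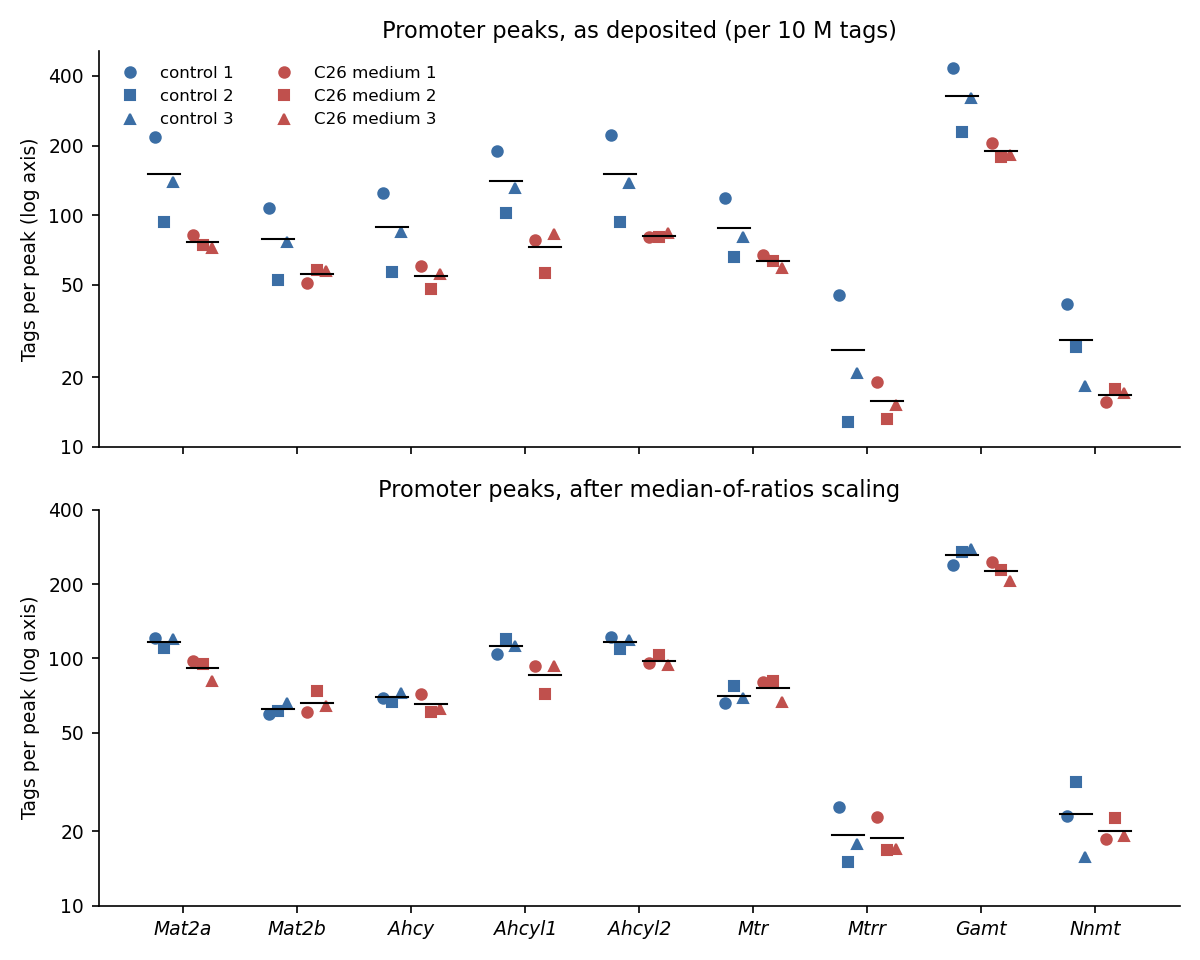
Tags per promoter peak (log axis) for the 9 methionine cycle enzymes in 3 control libraries (blue) and 3 C26 medium libraries (red), as deposited per 10 M tags (top) and after median-of-ratios scaling (bottom), with lines at group means. Control 1 is the highest library at every gene in the top panel, and in the bottom panel the groups are apart at Mat2a, Ahcyl1 and Ahcyl2.

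The Mat2a promoter peak (chromosome 6, 72438975 to 72440198, mm10) held 218, 93.8 and 139 tags per 10 M in controls and 82.3, 74.3 and 72.2 in C26 medium. The scaled values were 120, 110 and 120 tags against 97.9, 94.6 and 81.0, so that every control lay above every C26 library. The scaled log2 difference was -0.36 (SE 0.10, limma adjusted p = 0.00352), against -0.89 (adjusted p = 0.10) as deposited. It passed in 5 of 6 fits that left out a library (adjusted p = 0.0141 without control 1) and missed without C26 library 3 (adjusted p = 0.0515). This peak also overlaps Particl. The Mat2b promoter peak (chromosome 11, 40692273 to 40692995) had scaled values of 59.4, 61.4 and 65.8 tags in controls and 60.8, 73.8 and 64.4 in C26 medium. Its groups overlapped, with a scaled log2 difference of 0.09 (SE 0.11, adjusted p = 0.585). Whether Mat2a and Mat2b differ from each other in this was not tested.

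At Ahcyl1 the promoter peak (chromosome 3, 107696064 to 107697003) held 189, 102 and 131 tags per 10 M in controls and 78.0, 56.6 and 83.2 in C26 medium. Scaled, these were 105, 120 and 112 against 92.8, 72.1 and 93.4 tags. The groups were apart, with a scaled log2 difference of -0.39 (SE 0.10, limma adjusted p = 0.00272), the lowest of the 19, and the call was lost without C26 library 2 (-0.26, adjusted p = 0.0662) and held without control 1 (adjusted p = 0.00170). The Ahcyl1 promoter peak also covers an end of the noncoding gene Gm40121. The Ahcyl2 promoter peak (chromosome 6, 29767871 to 29769001), which lies at upstream starts and not at that of the transcript counted in the RNA, held 221, 93.2 and 138 tags per 10 M in controls and 80.4, 80.9 and 84.1 in C26 medium. Scaled, it was at 122, 109 and 119 against 95.6, 103 and 94.3 tags. Its scaled log2 difference was -0.26 (SE 0.09, adjusted p = 0.0318), and it passed in 2 of 6 fits that left out a library, those without control 2 and without C26 library 2, and not without control 1 (adjusted p = 0.104). At Ahcy, the hydrolase itself, the promoter peak (chromosome 2, 155073790 to 155074750, in intron 1 by its centre) had scaled values of 69.0, 66.9 and 72.6 against 71.9, 61.0 and 62.6 tags, with overlapping groups (-0.10, adjusted p = 0.541). The Ahcy promoter peak also covers ends of the noncoding genes Gm39966 and Gm45609. Quantile normalization kept the Mat2a and Ahcyl1 calls and not that of Ahcyl2 (adjusted p = 0.112), and edgeR on recovered reads called all 3.

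Neither promoter peak of the remethylation genes passed the test. Mtr (chromosome 13, 12257690 to 12258331, at its first exon) was at 65.8, 77.2 and 69.2 scaled tags in controls and 80.3, 80.9 and 66.6 in C26 medium (0.10, adjusted p = 0.525). Mtrr (chromosome 13, 68581804 to 68582447), whose peak also covers the start of Fastkd3, was at 24.98, 15.1 and 17.8 against 22.7, 16.8 and 17.0 scaled tags (-0.02, adjusted p = 0.966). Groups overlapped at both.

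Gamt had the highest promoter peak of the group per length, at 248 scaled tags per kb over 6 libraries, beside 114 at Mtr, 105 at Ahcyl1, 94.8 at Ahcyl2, 88.9 at Mat2b, 84.9 at Mat2a, 70.1 at Ahcy, 41.0 at Nnmt and 29.6 at Mtrr. Its peak (chromosome 10, 80260886 to 80261868) also spans the start of Dazap1, which lies 336 bp from Gamt in the RefSeq table and is read the other way. Scaled values were 238, 269 and 276 tags in controls and 245, 228 and 205 in C26 medium, with overlapping groups. The scaled log2 difference was -0.21 (SE 0.09, limma adjusted p = 0.0579), and it passed in 2 of 6 fits that left out a library (adjusted p = 0.00698 without control 1 and 0.0349 without C26 library 1). The Nnmt promoter peak (chromosome 9, 48605015 to 48605545) came from 4 of 6 peak lists, those of the 3 controls and of C26 library 1. Its scaled values were 23.01, 31.7 and 15.7 against 18.6, 22.5 and 19.1 tags, and its groups overlapped (-0.17, adjusted p = 0.590).

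Of the 11 other member peaks, at more than 1000 bp from a start, 10 were tested and none passed after scaling, with 4 above 0 and 6 below. The lowest was the Ahcy peak 23462 bp downstream of the start, beyond the end of the gene and annotated to the transcript end of the agouti gene, a (chromosome 2, 155050720 to 155051350), at 37.6, 32.9 and 39.5 scaled tags in controls and 27.8, 29.2 and 26.5 in C26 medium. Its groups were apart, with a scaled log2 difference of -0.38 (SE 0.16, adjusted p = 0.0581). Of the fits that left out a library, it passed only in that without control 2 (limma adjusted p = 0.0466). The Ahcyl1 peak 9767 bp upstream (chromosome 3, 107706124 to 107706531) was annotated as intergenic, yet lies inside the noncoding gene Gm40121 of the RefSeq table. It went the other way from the Ahcyl1 promoter, at 58.1, 67.3 and 63.7 against 79.3, 71.6 and 73.0 scaled tags, with groups apart (0.24, SE 0.11, adjusted p = 0.0839). Quantile normalization called both (adjusted p = 0.0268 for the Ahcy peak and 0.0380 for the Ahcyl1 peak). The Mat2a peak 47977 bp upstream had the highest scaled difference, 0.46 (SE 0.31, adjusted p = 0.268), on 4.67 to 18.8 scaled tags. Without control 3 it was -0.08. The Mtr peak in intron 13 (chromosome 13, 12232093 to 12232479) was at 28.7, 28.9 and 28.9 scaled tags in controls and 28.3, 25.6 and 20.6 in C26 medium, with groups apart by a narrow margin (-0.22, adjusted p = 0.370). The other 6 tested, 2 each at Mat2b and Nnmt and 1 each at Mat2a and Ahcyl1, had scaled differences from -0.24 to 0.06 and overlapping groups.

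**Figure D5:**
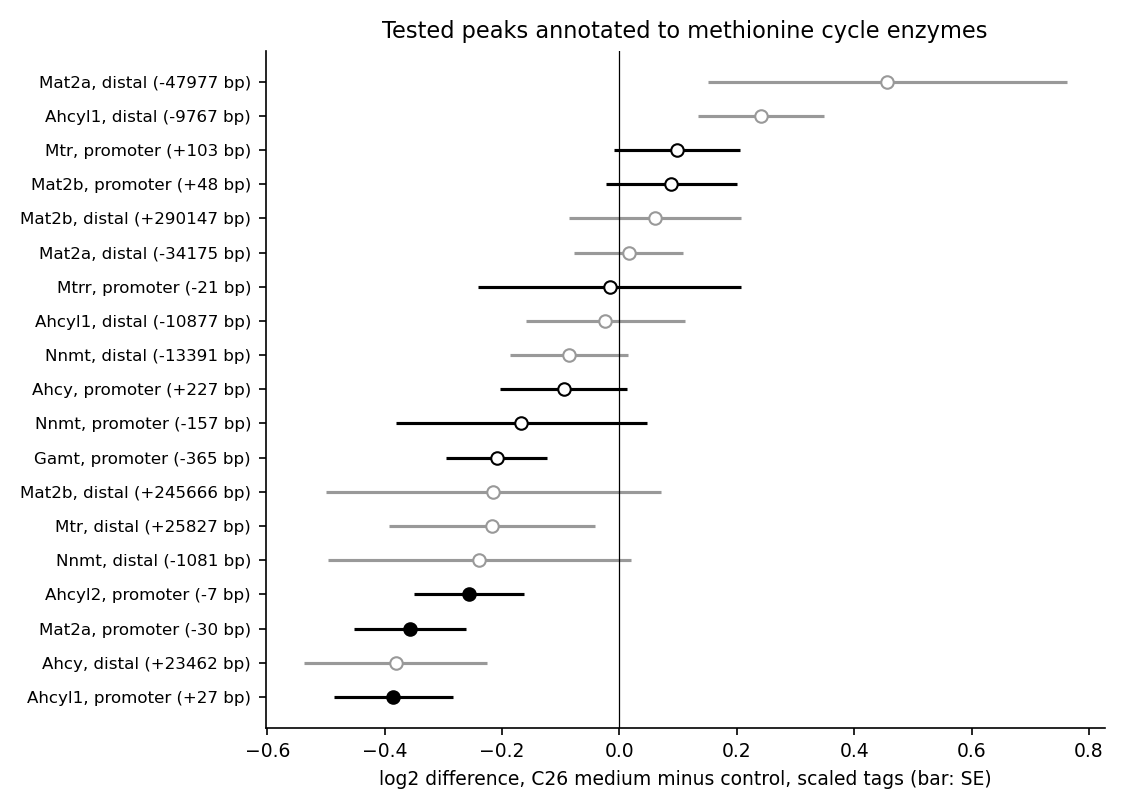
Scaled log2 differences (C26 medium minus control) with their SE for the 19 tested peaks of methionine cycle enzymes, ordered by value, with black for promoter and grey for distal peaks and the distance from the annotated start in parentheses. Filled points, the promoters of Ahcyl1, Mat2a and Ahcyl2, passed at an adjusted p of 0.05, and the open points did not.

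Promoter peaks stood for 64 genes of the pathway lists. After scaling 17 of them passed as lower and 1 as higher, beside the 21.2% of all promoter peaks that passed as lower. These sets are unlike: each list gene gave only its promoter peak with the highest mean, while the 21.2% covers every promoter peak tested. The share of all promoter peaks that passed as higher was not taken. As deposited 1 list promoter passed, that of the m6A demethylase Alkbh5 (log2 difference -1.08, adjusted p = 0.0494). The scaled difference was -0.34 at Mettl16 (adjusted p = 0.0440), -0.29 at Nampt (0.0124) and -0.28 at Gatm (0.289). For the methionine cycle enzymes the RNA and the chromatin came from different material and different tumours, and their differences were not compared in a test.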

How the data were processed

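The RNA table holds FPKM, computed by the authors in HOMER over RefSeq exons (mm10) with both strands counted, per the file headers. The ATAC table holds signal: per the file headers, tags in each merged peak per 10 M tags of the library. The submitters' processing notes name HISAT2, HOMER, DESeq2, Bowtie2, MACS2, GRCm38 and mm10, while versions, roles and settings were not given in the sources used here. All 12 value columns were used.

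Features were tested on log2(value + 1), which understates changes of low values, if they averaged 1 FPKM or more (12981 of 20194 genes) or 5 tags or more (37358 of 38244 peaks). The test was limma 3.58.1 in R 4.3.3 (lmFit, eBayes with trend). It was two-sided, p-values were adjusted over all features by Benjamini-Hochberg, and the threshold was 0.05. The values sat on whole steps of reads (100% within a tolerance of 0.1), and the reads recovered from them were tested with edgeR 4.0.16. In the RNA the total of each library was set where its values best met such steps. A step was a fraction of a tag, so recovered reads outnumbered tags in the RNA libraries, at 25.7 to 32.5 M. Ratios were tested with an exact permutation test. The fits were tested on simulated data drawn from a common profile. Those data held no difference between libraries in the share of tags in peaks, so they do not bear on the choice of ATAC scale. Sequences are RefSeq promoter windows of GRCm38.p6.

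The 9 members, 11 lists, markers and motifs were chosen with earlier results of these data known. Genes named are the members, the 2 genes of each list with the smallest p, Gatm, Nampt, Mettl16, Bhmt and Mat1a, and the 2 genes nearest to each member spanning at least 1 on the log2 scale; 1 further gene of the rule is not reported here. A promoter peak lies within 1000 bp of a start. Alternatives were other pseudocounts, filters, scalings, thresholds and distances, a replicate block, and leaving out each library. Scaled fits without each library were added after the scaled calls had been seen. Alignment of the members' proteins was not analysed here.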

Additional observations from a re-analysis of the deposited data

How the results depend on the processing

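In the RNA no alternative called a member. The count of genes called was 0, and 1 with a mean of at least 5 FPKM, 1 with median-of-ratios scaling, 2 with TPM and 1 with quantile normalization. Gamt, Nnmt and Mtrr kept their direction under every alternative run, and members near 0 changed sign: with TPM Ahcy (0.030) and Ahcyl1 (0.023), and with quantile normalization Mtr (-0.014). Leaving out each library in turn moved across 0 the log2 differences of Mat2a (-0.22 to 0.0013), Mat2b (-0.16 to 0.014), Ahcy (-0.16 to 0.090), Ahcyl2 (-0.0034 to 0.22) and Mtr (-0.11 to 0.16). It did so for the differences (LLC minus PBS) of the ratios Mat2a over Mat2b (-0.31 to 0.17), Mat2a over Ahcy (-1.07 to 0.46), Ahcyl1 and Ahcyl2 over Ahcy (-0.10 to 0.21), Mtr over Mtrr (-0.11 to 0.0025) and Gamt over Gatm (-0.82 to 0.097). Whether the replicate numbers pair the samples is not known. Correlations of same-numbered deviations from the group means were -0.09, 0.60 and -0.60 in the RNA and -0.01, 0.01 and -0.02 in the ATAC libraries. Those of differently numbered RNA libraries ran from -0.58 to 0.63. With 3 libraries per group such values cannot settle the pairing. A fit with the replicate block called 0 genes, 0 members, 1071 peaks and 0 member peaks.

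As deposited 1132 peaks and 0 member peaks were called. These counts were 495 and 0 with no filter, 471 and 0 with a mean of at least 20 tags, 11121 and 3 with median-of-ratios scaling, 11021 and 4 with quantile normalization, 11354 and 3 with edgeR and 3495 and 1 at an adjusted p under 0.1. Without 1 library they ran over 133 to 20602 peaks and 0 to 14 member peaks, the highest without control 2. After scaling they ran over 8634 to 9675 and 1 to 4, the latter lowest without C26 library 3. Of list promoters 1 was called as deposited and 18 after scaling. Less the median of all peaks, peaks near 0 changed sign, named by gene and distance: Mat2a distal -34175 (-0.023) at a pseudocount of 5, Mtrr promoter -21 (-0.0016) with no filter, Ahcyl1 distal -10877 (0.033) at 20 tags, Mtrr promoter -21 (-0.061) with edgeR, and Ahcy promoter 227 (0.0065), Ahcyl1 distal -10877 (0.0023), Mtrr promoter -21 (-0.085) and Nnmt distal -13391 (0.042) with quantile normalization. Without 1 library the ranges that crossed 0 were Mat2a distal -34175 (-0.064 to 0.074), Mat2a distal -47977 (-0.048 to 0.83), Mat2b distal 245666 (-0.30 to 0.054), Ahcyl1 distal -10877 (-0.055 to 0.044), Mtrr promoter -21 (-0.14 to 0.20), Nnmt promoter -157 (-0.39 to 0.098) and Nnmt distal -1081 (-0.39 to 0.040), and after scaling Mat2a distal -34175 (-0.064 to 0.074), Mat2a distal -47977 (-0.080 to 0.78), Mat2b distal 245666 (-0.34 to 0.023), Ahcyl1 distal -10877 (-0.065 to 0.035), Mtrr promoter -21 (-0.17 to 0.17), Nnmt promoter -157 (-0.42 to 0.066) and Nnmt distal -1081 (-0.43 to 0.019). The cause was not tested.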

Other observations

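The table lists 1 further Mat2b peak, 343997 bp from the start (chromosome 11, 40348313 to 40349058). It came from 5 of 6 peak lists and is listed at 0 tags in all 6 libraries, as are 301 of 38244 peaks, so it entered no test. Of the 20 member peaks 15 came from all 6 lists, beside 60.1% of all peaks.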
